A study of Arabidopsis thaliana with 36 samples.

Results

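The genes described here make nicotianamine or move iron between root tissues and between root and shoot in Arabidopsis thaliana. They are 9 of the 24532 loci in the count table, chosen by locus: the nicotianamine synthase genes NAS1 (AT5G04950), NAS2 (AT5G56080), NAS3 (AT1G09240) and NAS4 (AT1G56430), the transporter genes YSL1 (AT4G24120), YSL3 (AT5G53550) and OPT3 (AT4G16370), the citrate transporter gene FRD3 (AT3G08040) and the ferric reductase gene FRO3 (AT1G23020). Root RNA was sequenced in 36 libraries, 3 in each of 12 groups made of 3 genotypes under 4 treatments. The genotypes were wild type (WT, accession Col-0), the mutant fls2, which lacks the receptor for the bacterial flagellin peptide flg22, and UBQ10::mCitrine-IMA1 (IMA1ox), in which the iron-deficiency signalling peptide IMA1 is expressed as an mCitrine fusion from the broadly active ubiquitin promoter UBQ10. Seedlings 7 days old, all raised on plates with Fe, were kept for 24 h in liquid medium with 75 µM Fe (+Fe) or with 50 µM of the Fe chelator FerroZine (-Fe), each without or with 100 nM flg22. Each library pooled around 15 roots. The number of independent IMA1ox lines and the allele of fls2 are not given in the sources used here, and p-values measure the spread between such pools.

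Nicotianamine is a small chelator made from S-adenosylmethionine that binds iron, zinc, copper and other metals in the cytosol and the phloem. YSL1 and YSL3 are transporters of metal-nicotianamine complexes, known for moving metals out of the veins and into leaves and seeds. OPT3 loads iron into the phloem companion cells and is needed for the iron status of the shoot to reach the root. FRD3 releases citrate into the xylem, where citrate carries ferric iron to the shoot, and FRO3 is a ferric reductase of the mitochondrion. ZIF1, a vacuolar nicotianamine transporter, and the transcription factors PYE, FIT and the subgroup Ib bHLH proteins act beside or above these genes in the iron deficiency response.

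In the RefSeq annotation of TAIR10.1, a release of the TAIR10 assembly that the submitters name, NAS1 lies on chromosome 5 (1457641 to 1459039, - strand), NAS2 on chromosome 5 (22711141 to 22712441, - strand), NAS3 on chromosome 1 (2984829 to 2986231, + strand) and NAS4 on chromosome 1 (21136835 to 21138277, + strand), each with 1 exon. YSL1 is annotated on chromosome 4 (12524186 to 12527347, + strand), YSL3 on chromosome 5 (21755251 to 21758950, + strand), OPT3 on chromosome 4 (9247302 to 9250343, - strand), FRD3 on chromosome 3 (2566196 to 2569700, - strand) and FRO3 on chromosome 1 (8149868 to 8153796, - strand). FRO3 overlaps its neighbour LPR1 (AT1G23010) on the other strand by 24 bases. Whether counting used strand is not given in the sources used here, so reads in that overlap cannot be assigned, and LPR1 stood between 18.2 and 26.5 CPM as group means. The other 8 genes overlap no annotated gene.

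The coding sequences of the 4 NAS genes form pairs. NAS1 and NAS2 are identical at 82.6% of aligned bases, with a longest identical run of 49 bases, and NAS3 and NAS4 at 79.0%, with a longest run of 32 bases. The remaining pairs lie between 66.4% and 68.2%. Counts of NAS1 and NAS2 therefore could trade some reads, and small values of NAS2 beside a high NAS1 are uncertain to that extent. How reads with several matches were treated is not given in the sources used here.

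The promoters of the genes with the largest Fe deficiency responses are shown because these 3 genes rose together in WT roots without Fe. Each run holds the 250 bases upstream of the annotated start in TAIR10.1, read 5′ to 3′ on the gene's strand, and capitals mark the G-box, CACGTG, a motif that bHLH factors are known to bind.
OPT3 (chr4:9250344-9250593, - strand): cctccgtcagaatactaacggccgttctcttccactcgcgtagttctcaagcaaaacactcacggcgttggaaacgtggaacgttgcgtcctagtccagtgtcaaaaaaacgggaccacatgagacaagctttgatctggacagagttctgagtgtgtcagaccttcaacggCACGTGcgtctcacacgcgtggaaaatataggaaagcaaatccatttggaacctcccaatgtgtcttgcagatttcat
FRO3 (chr1:8153797-8154046, - strand): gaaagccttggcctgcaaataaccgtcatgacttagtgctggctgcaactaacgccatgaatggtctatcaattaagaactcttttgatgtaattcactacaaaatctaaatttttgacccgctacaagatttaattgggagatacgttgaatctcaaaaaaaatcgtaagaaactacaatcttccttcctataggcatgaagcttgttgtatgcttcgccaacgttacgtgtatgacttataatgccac
NAS4 (chr1:21136585-21136834, + strand): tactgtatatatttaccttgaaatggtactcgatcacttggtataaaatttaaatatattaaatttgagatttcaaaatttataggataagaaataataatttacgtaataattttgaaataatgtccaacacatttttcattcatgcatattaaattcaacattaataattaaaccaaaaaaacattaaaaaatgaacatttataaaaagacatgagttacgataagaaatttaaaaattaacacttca
Of the 9 promoters, only that of OPT3 held a G-box, whose first base lies 78 bases upstream of the start, and 6.49% of 27443 Arabidopsis promoters of the same length hold 1 or more. The wider E-box CANNTG, which includes the G-box, was in 6 of the 9 promoters against 55.3% of all. The copper response core GTAC was in 6 of 9 against 34.3%, and the zinc deficiency core GTCGAC in 0 of 9 against 1.64%. All motifs were searched on both strands. A match describes the letters in this window and is no evidence of binding.

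Library totals ran from 28130566 to 40903411 counts, and 20354 loci passed the filter on low counts. The labels were checked on the altered genes. FLS2 had 0 counts in the 6 fls2 libraries without flg22 and at most 3 counts in those with it, against 1.20 ± 0.403 CPM in WT with Fe (mean ± SD, n = 3). IMA1 stood at 341 ± 8.29 CPM in IMA1ox and 2.45 ± 0.657 CPM in WT with Fe. All markers of xylem, phloem, stele, root hair and endodermis on the lists used were counted in every group, as were the 10 green shoot genes, whose summed level was 310 ± 46.1 CPM in WT with Fe. Libraries IMA1ox -Fe +flg22 number 1 and WT -Fe number 3 stood farthest from the other 2 of their groups. Leaving both out ended 1 of the calls described here, that of FRO3 in IMA1ox against WT without Fe with flg22, and added 5 calls.

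NAS3 had no count in any of the 36 libraries. A count of 0 allows up to 3 counts, which corresponds to 0.0733 to 0.107 CPM in single libraries and to 0.00251 CPM over all of them, for counting error only. NAS3 was therefore not tested, and 8 of the 9 genes were. Levels are given below in CPM, read counts relative to the library's total over the tested loci after TMM scaling, with the SD over 3 libraries, and log2 fold changes with their SE. A gene was called where the Benjamini-Hochberg adjusted p of edgeR's quasi-likelihood test over all 20354 loci was under 0.05.

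**Figure D1:**
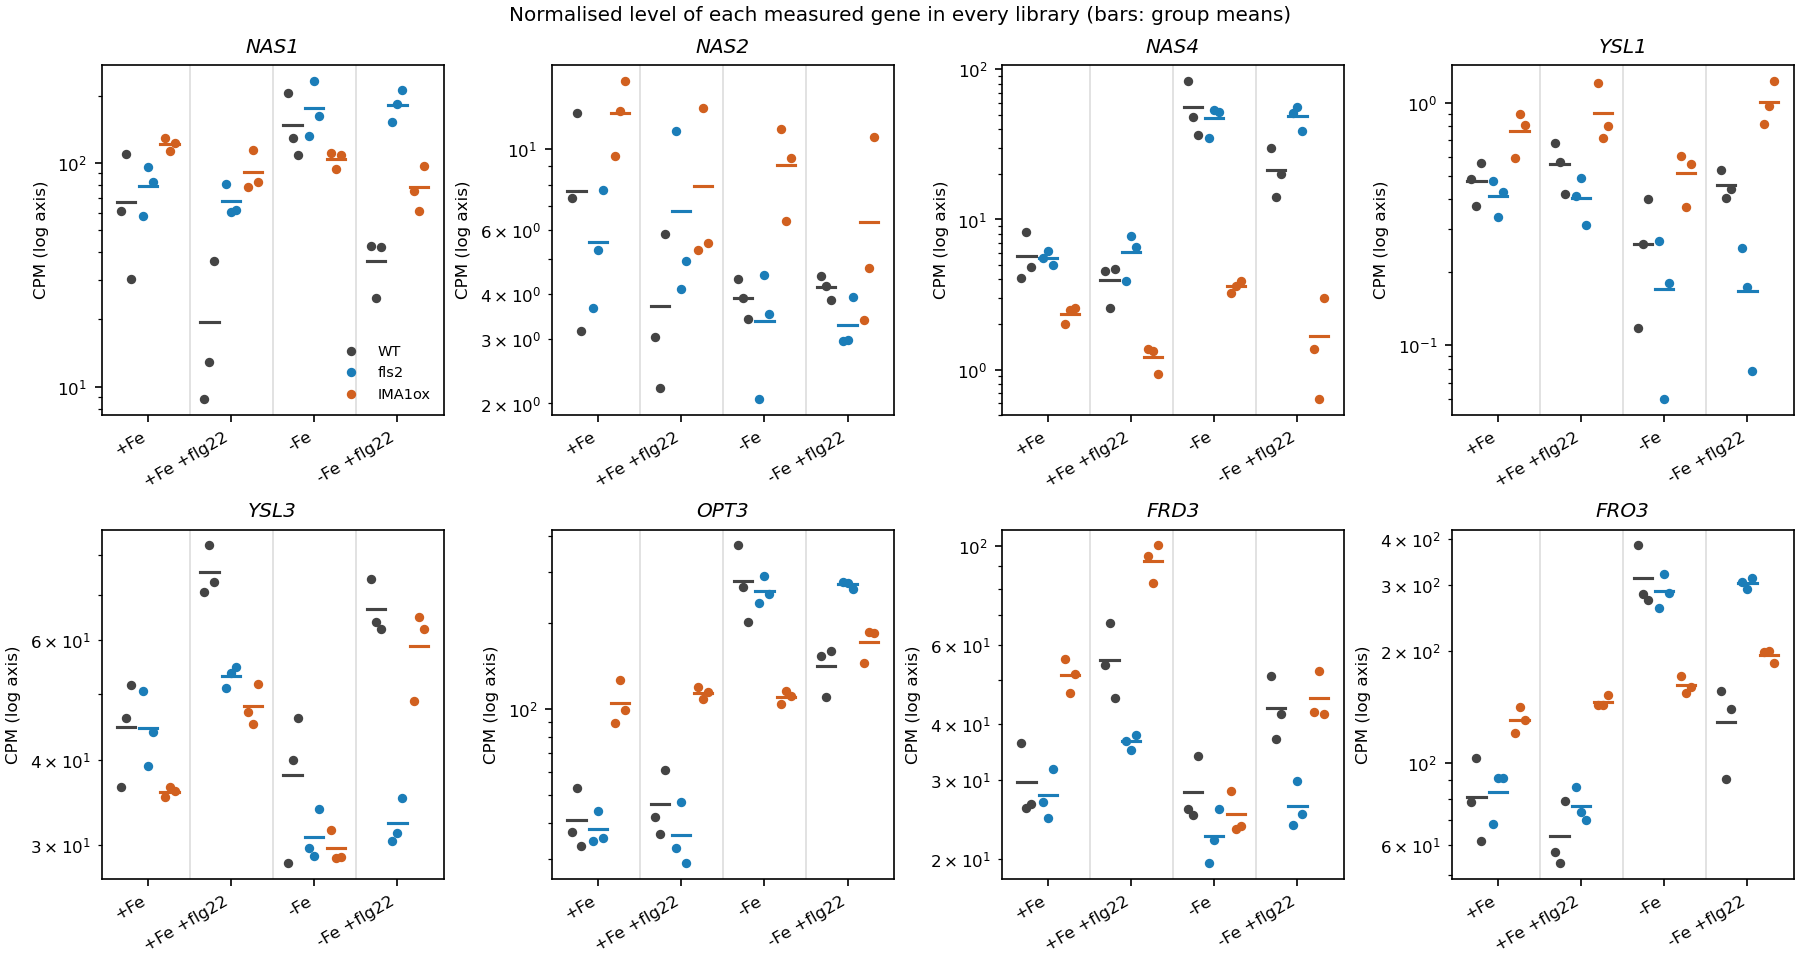
Level of the 8 measured genes in every library (CPM, log axis) for each treatment, with WT in grey, fls2 in blue and IMA1ox in orange; points are libraries and short bars are group means. NAS4, OPT3 and FRO3 have their highest group means in WT -Fe and in fls2 -Fe without or with flg22, and are lower in WT -Fe +flg22. NAS4 is low in all IMA1ox libraries (0.638 to 3.90 CPM).

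Fe deficiency in WT raised the synthase NAS4, the phloem loader OPT3 and the mitochondrial reductase FRO3, and none of the other 5 measured genes was called. Thus 3 of 8 were higher and 0 lower, where 5.97% of all tested loci were called. NAS4 stood at 4.05, 8.27 and 4.82 CPM in the 3 WT libraries with Fe and at 83.4, 48.3 and 36.4 CPM in the 3 without. The groups did not overlap, and the log2 fold change was 3.31 ± 0.35 (adjusted p = 6.88e-07). OPT3 went from 37.1, 52.8 and 33.3 CPM to 371, 265 and 200 CPM, a log2 fold change of 2.77 ± 0.23 (adjusted p = 9.85e-09). For FRO3, libraries with Fe held 78.4, 103 and 61.8 CPM and those without held 384, 284 and 273 CPM, again with no overlap (log2 fold change 1.95 ± 0.18, adjusted p = 5.48e-08). In each of the 3 genes the same -Fe library, number 1, was the highest. With other scalings, filters and fits all 3 calls held. The highest adjusted p among them was 0.0422 for NAS4, 0.0256 for OPT3 and 0.0245 for FRO3. In whole roots, fewer cells of a type and less RNA per cell cannot be told apart.

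NAS1, the NAS gene with the highest level, was at 66.8 ± 39.9 CPM with Fe and 148 ± 51.2 CPM without, and the libraries overlapped by little (30.3 to 109 CPM against 108 to 206 CPM). Its log2 fold change of 1.15 ± 0.39 was not called (adjusted p = 0.0883), though it was called without WT +Fe library 2 (adjusted p = 0.0219). NAS2 had a log2 fold change of -0.96 ± 0.50, from 7.70 ± 4.72 to 3.90 ± 0.495 CPM, and was not called (adjusted p = 0.302). The transporters YSL1 and YSL3 had log2 fold changes of -0.89 ± 0.40 and -0.23 ± 0.13, and FRD3 of -0.07 ± 0.16, none of them called. YSL1 was near the limit of detection throughout, with group means between 0.168 and 1.01 CPM and 606 counts in all libraries together.

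In fls2 the same 3 genes rose without Fe. Without flg22, NAS4, OPT3 and FRO3 rose by log2 fold changes of 3.09 ± 0.35, 2.76 ± 0.23 and 1.79 ± 0.18, while YSL3 fell by 0.53 on the log2 scale, from 44.5 ± 5.68 to 30.8 ± 2.66 CPM (adjusted p = 0.0323). These are 3 of 8 genes higher and 1 lower, against 2.12% of all loci called. The YSL3 call was lost without fls2 +Fe library 1 or 3 (adjusted p = 0.182 and 0.0736) or -Fe library 1 or 2 (0.148 and 0.14). In fls2 with flg22, 4 genes were higher and 1 lower, where 5.30% of loci were called. NAS1 was among them, at 80.9, 60.2 and 61.4 CPM with Fe and 153, 184 and 211 CPM without (log2 fold change 1.44 ± 0.40, adjusted p = 0.0323). Its call was lost without any 1 of 5 of the 6 libraries, +Fe library 2 (adjusted p = 0.142), +Fe library 3 (0.125) or -Fe library 1 (0.0527), 2 (0.0869) or 3 (0.0814). YSL3 fell there from 53.2 ± 1.98 to 32.3 ± 2.58 CPM, by 0.72 on the log2 scale (adjusted p = 0.000998). Tested directly, the Fe deficiency response of fls2 differed from that of WT in 0 of 8 genes without flg22 and in 0 of 8 with it, where 0% and 0.231% of loci were called. At an unadjusted p under 0.05 these counts were 0 and 3, where 607 and 1248 of all tested loci were at that level. DESeq2 called 0 of 8 and 2 of 8, the 2 being OPT3 and FRO3 with flg22 (adjusted p = 0.013 and 0.033).

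In IMA1ox, NAS4, OPT3 and FRO3 were not called in response to Fe deficiency, and FRD3 fell. Without flg22, FRD3 held 56.0, 46.8 and 51.6 CPM in the libraries with Fe and 28.3, 23.3 and 23.7 CPM in those without, a fall of 1.03 on the log2 scale with no overlap (adjusted p = 0.000186). It was the 1 gene of 8 called, against 4.29% of loci. Under flg22, FRD3 went from 92.5 ± 9.06 to 45.7 ± 5.92 CPM (log2 fold change -1.02 ± 0.15, adjusted p = 0.000339) and was again the 1 gene of 8, against 2.26% of loci. Without flg22, 3 of 6 root outer and endodermal markers were higher without Fe (summed 474 to 490 against 293 to 323 CPM), and 0 of 6 were called under flg22, and their part in the FRD3 values was not tested. OPT3 stood at 89.6, 126 and 99.2 CPM with Fe and at 104, 116 and 111 CPM without, a log2 fold change of 0.07 ± 0.21. Under flg22 its groups did not overlap, at 114 ± 5.08 CPM with Fe and 171 ± 22.96 CPM without, and its log2 fold change of 0.59 ± 0.21 was not called (adjusted p = 0.161). FRO3 did not overlap either, at 146 ± 5.44 and 195 ± 7.77 CPM (log2 fold change 0.42 ± 0.18, adjusted p = 0.229). There 4 of 8 genes were at an unadjusted p under 0.05, and 1 of 8 without flg22. Of all tested loci, 3202 with flg22 and 3141 without it were at that level. Without flg22, NAS4 had 2.36 ± 0.308 CPM with Fe and 3.59 ± 0.329 CPM without, and these groups did not overlap, but its log2 fold change of 0.60 ± 0.46 was not called (adjusted p = 0.601). FRO3 without flg22 did not overlap either, at 131 ± 10.5 CPM with Fe and 161 ± 8.63 CPM without (log2 fold change 0.31 ± 0.18, adjusted p = 0.439).

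The difference between the responses of IMA1ox and WT was itself past the threshold for 4 of 8 genes without flg22, all lower in IMA1ox, against 4.02% of loci. It was -2.71 ± 0.58 on the log2 scale for NAS4 (adjusted p = 0.00661), -2.70 ± 0.31 for OPT3 (adjusted p = 1.25e-05), -1.65 ± 0.25 for FRO3 (adjusted p = 0.000216) and -0.96 ± 0.22 for FRD3 (adjusted p = 0.0112). These 4 calls held without any single library of the compared groups. With flg22 the same difference was called for 0 of 8 genes, against 0.142% of loci, and for 0 of 8 by DESeq2. It was at an unadjusted p under 0.05 for 5 of 8 genes and for 1759 of all tested loci. Its values there were -1.98 ± 0.72 for NAS4 and -1.01 ± 0.31 for OPT3, and limma-trend on the deposited CPM called NAS4 (adjusted p = 0.0465).

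**Figure D2:**
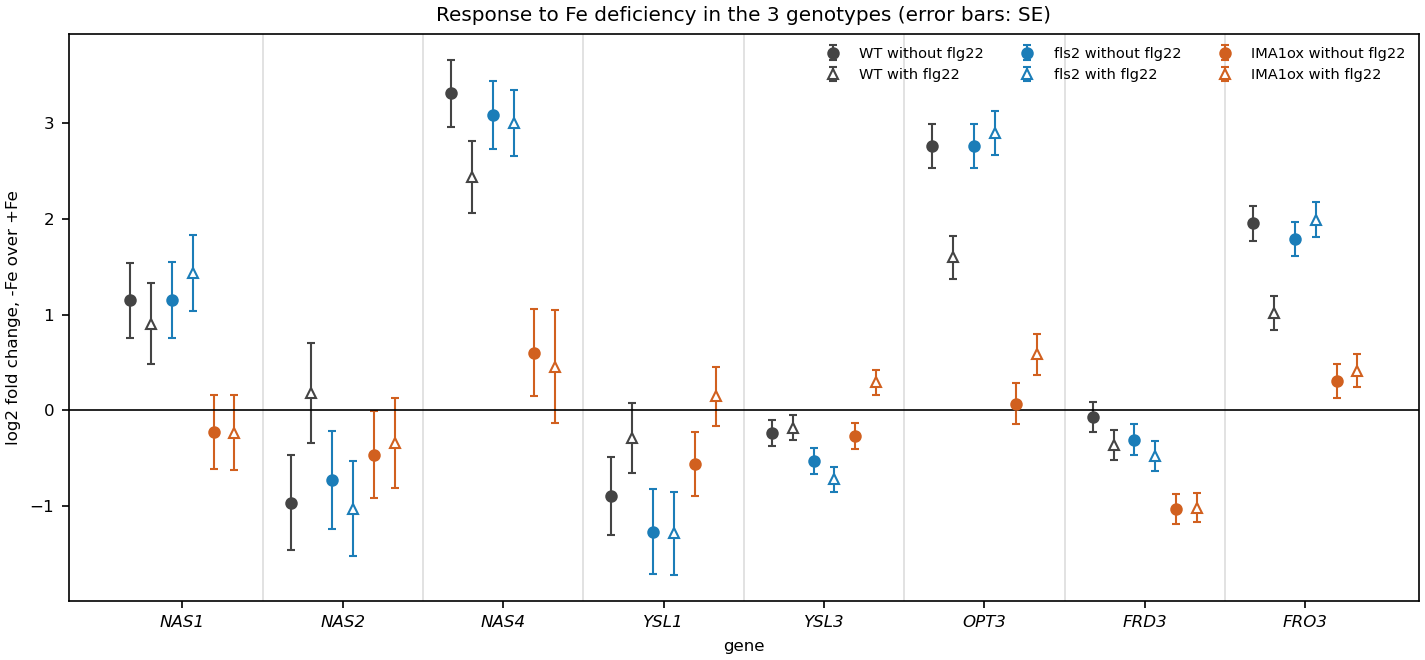
Log2 fold change of each gene without Fe over with Fe (points, error bars SE) in WT (grey), fls2 (blue) and IMA1ox (orange), without flg22 (filled circles) or with flg22 (open triangles). NAS4, OPT3 and FRO3 lie between 1.02 and 3.31 in WT and fls2 and between 0.07 and 0.60 in IMA1ox; FRD3 is at -1.03 and -1.02 in IMA1ox.

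In roots without flg22, OPT3 and FRO3 were higher in IMA1ox than in WT with Fe and lower without Fe, and NAS4 was lower at both Fe supplies. With Fe, OPT3 was higher in IMA1ox by 1.36 ± 0.22 on the log2 scale (105 ± 19.1 against 41.1 ± 10.3 CPM, adjusted p = 0.000115), FRO3 by 0.69 ± 0.18 (adjusted p = 0.0083) and FRD3 by 0.80 ± 0.16 (adjusted p = 0.000754). NAS4 was lower, at 2.01, 2.49 and 2.59 CPM in IMA1ox against 4.05, 8.27 and 4.82 CPM in WT, which was -1.26 ± 0.43 on the log2 scale (adjusted p = 0.0472). So 3 of 8 genes were higher and 1 lower, against 16.7% of loci. The NAS4 call was close to the threshold and was lost without WT +Fe library 2 or 3 (adjusted p = 0.212 and 0.0671) or IMA1ox +Fe library 1, 2 or 3 (0.132, 0.0921 and 0.0944), and without the filter on low counts (0.0549). The FRO3 call was lost without WT +Fe library 3 (adjusted p = 0.0754) and in a fit of the compared groups alone (0.0933). NAS1, at 122 ± 8.40 against 66.8 ± 39.9 CPM, was not called, and was called without WT +Fe library 2 (adjusted p = 0.0263).

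Without Fe, 0 of 8 genes were higher and 3 lower in IMA1ox, against 11.9% of loci. NAS4 stood at 3.25, 3.62 and 3.90 CPM in IMA1ox and 83.4, 48.3 and 36.4 CPM in WT, a log2 fold change of -3.97 ± 0.37 (adjusted p = 1.39e-07) and the largest difference among the 20 comparisons of 2 groups for any of these genes. OPT3 was lower by 1.34 ± 0.22 on the log2 scale, as 110 ± 5.64 against 279 ± 86.4 CPM (adjusted p = 0.00019). FRO3 was lower by 0.96 ± 0.18, as 161 ± 8.63 against 314 ± 61.2 CPM (adjusted p = 7e-04). For both, the IMA1ox libraries without Fe lay above the WT libraries with Fe and below those without. YSL3 was not called, but was without WT -Fe library 1 (adjusted p = 0.00635), as was YSL1 without WT -Fe library 3 (0.0477).

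Under flg22 with Fe, IMA1ox differed from WT in 6 of 8 genes, 4 higher and 2 lower, against 14.5% of loci. NAS1 held 78.4, 114 and 82.5 CPM in IMA1ox against 8.83, 12.9 and 36.7 CPM in WT, with no overlap and a log2 fold change of 2.24 ± 0.42 (adjusted p = 0.000714). That value was larger, 3.07, without WT +Fe +flg22 library 3, and in a fit of the compared groups alone NAS1 was not called (adjusted p = 0.106). OPT3 was higher by 1.29 ± 0.22, FRO3 by 1.20 ± 0.18 and FRD3 by 0.73 ± 0.15 on the log2 scale. YSL3 was lower, at 48.0 ± 3.33 against 75.5 ± 6.37 CPM (log2 fold change -0.65 ± 0.13, adjusted p = 0.00109), and NAS4 was lower by 1.69 ± 0.53 (adjusted p = 0.0323). The NAS4 call was lost without WT +Fe +flg22 library 1 (adjusted p = 0.102) or 3 (0.0952) or IMA1ox +Fe +flg22 library 1 (0.065), 2 (0.0833) or 3 (0.101).

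Under flg22 without Fe, 2 of 8 genes were higher and 1 lower, against 10.3% of loci. NAS4 was lower again, at 1.38, 0.638 and 3.01 CPM in IMA1ox and 30.1, 14.02 and 19.95 CPM in WT (log2 fold change -3.67 ± 0.41, adjusted p = 1.85e-06), and the value was -4.40 without IMA1ox library 3. YSL1 was higher, at 1.01 ± 0.207 against 0.457 ± 0.0633 CPM (log2 fold change 1.13 ± 0.33, adjusted p = 0.0265), and FRO3 by 0.60 ± 0.18 (adjusted p = 0.0274). The YSL1 call was lost without WT library 1 (adjusted p = 0.05), 2 (0.0927) or 3 (0.086) or IMA1ox library 2 (0.0542) or 3 (0.115), and with the compared groups alone (0.0903). The FRO3 call was lost without WT library 2 (0.17) or IMA1ox library 1 (0.0586) or 2 (0.0763), with the compared groups alone (0.166) and without both libraries that stood apart (0.0562).

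Markers of several tissues moved with the overexpressor. With Fe and without flg22, where 16.7% of all loci were called, 7 of 10 green shoot genes were lower and 0 higher in IMA1ox than in WT, with summed levels of 176 to 231 CPM against 274 to 362 CPM. In xylem, 3 of 4 markers were lower (summed 154 to 191 against 223 to 241 CPM), in pericycle and stele 2 of 5 (562 to 611 against 685 to 741 CPM), and among root outer and endodermal markers 3 of 6 were lower and 1 higher (293 to 323 against 420 to 545 CPM). Phloem markers had 1 higher and 1 lower of 5 (123 to 136 against 124 to 139 CPM). Without Fe, where 11.9% of loci were called, 5 of 10 green shoot genes (172 to 202 against 223 to 337 CPM) and 3 of 5 pericycle and stele markers were lower in IMA1ox, and no xylem, phloem, root outer or endodermal marker was called. Their part in the differences of NAS4, OPT3, FRO3 and FRD3 was not tested.

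**Figure D3:**
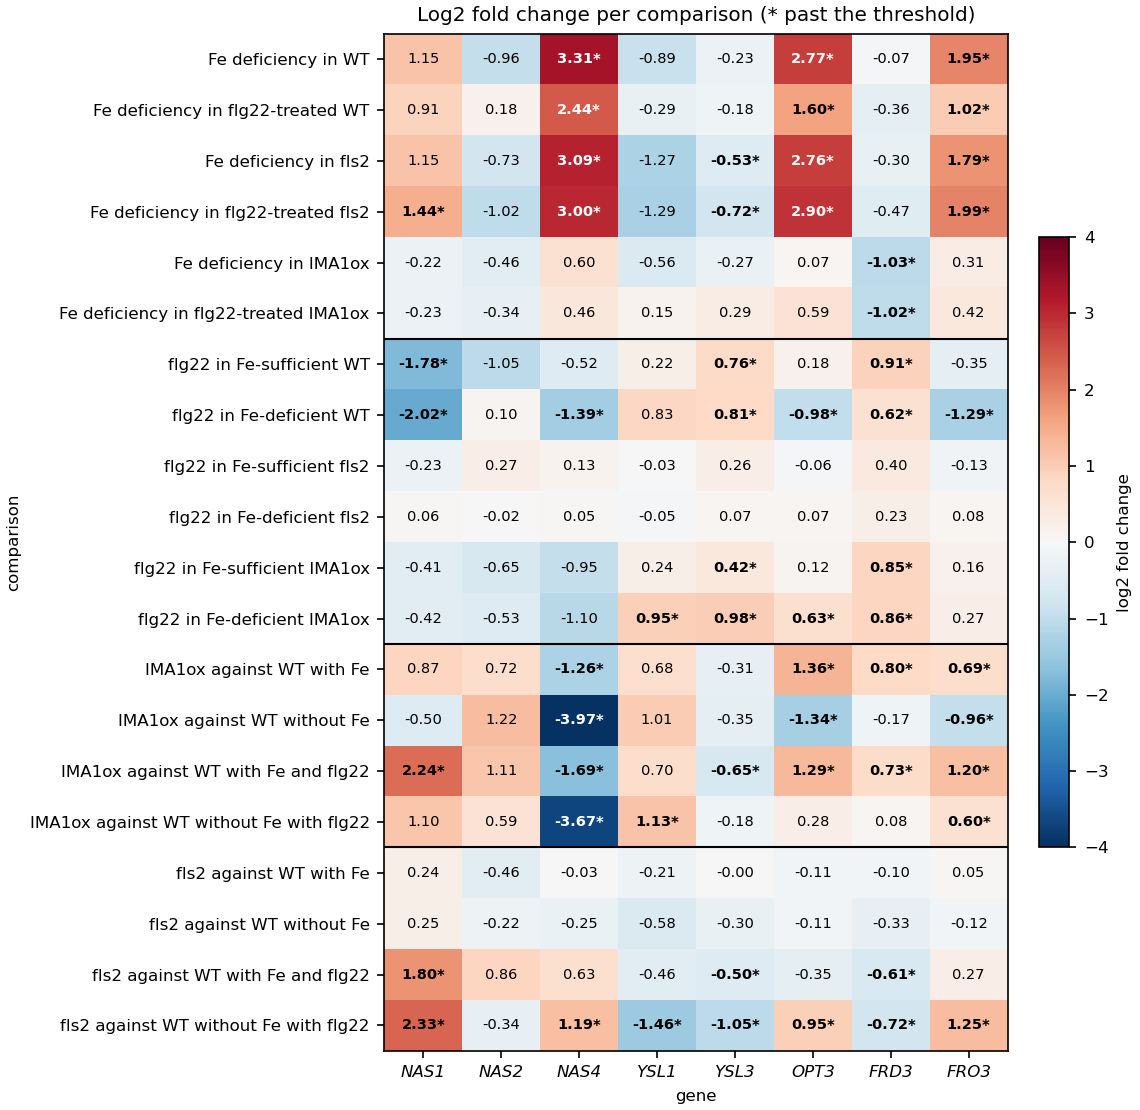
Log2 fold change (colour and number) of the 8 measured genes in the 20 comparisons of 2 groups, grouped by Fe deficiency, flg22, IMA1ox against WT and fls2 against WT; a star marks an adjusted p under 0.05. Both rows of flg22 in fls2 have no star, and NAS4 is negative in all 4 rows of IMA1ox against WT.

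The flagellin peptide lowered NAS1 and raised YSL3 and FRD3 in WT at both Fe supplies. With Fe, NAS1 went from 60.8, 109 and 30.3 CPM to 8.83, 12.9 and 36.7 CPM, a log2 fold change of -1.78 ± 0.42 (adjusted p = 0.00186). The groups overlapped through the third library of each, and without the treated library 3 the value was -2.61. In a fit of the compared groups alone it was not called (adjusted p = 0.171). YSL3 rose from 36.5, 46.1 and 51.5 CPM to 70.7, 82.7 and 73.0 CPM (log2 fold change 0.76 ± 0.13, adjusted p = 7.61e-05). FRD3 rose from 36.3, 25.96 and 26.5 CPM to 54.0, 67.3 and 45.7 CPM (log2 fold change 0.91 ± 0.16, adjusted p = 6.48e-05). So 2 of 8 genes were higher and 1 lower, a share near the 40.1% of all loci called. NAS2 and FRO3 were not called here, at log2 fold changes of -1.05 ± 0.50 and -0.35 ± 0.18. Each was called without WT +Fe library 3 (adjusted p = 0.0266 and 0.0256) or without the treated library 3 (0.0375 and 0.0263).

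Without Fe, flg22 also lowered the 3 genes that Fe deficiency had raised. There 2 of 8 genes were higher and 4 lower, against 35% of loci. NAS4 stood at 83.4, 48.3 and 36.4 CPM without and 30.1, 14.02 and 19.95 CPM with flg22, with no overlap (log2 fold change -1.39 ± 0.31, adjusted p = 0.00122). OPT3 went from 371, 265 and 200 CPM to 153, 110 and 160 CPM (log2 fold change -0.98 ± 0.21, adjusted p = 0.000964). FRO3 fell by 1.29 on the log2 scale, from 384, 284 and 273 CPM to 156, 90.5 and 139 CPM (adjusted p = 5.28e-06). NAS1 fell by 2.02, from 206, 129 and 108 CPM to 42.4, 24.8 and 42.0 CPM (adjusted p = 0.000504). YSL3 rose by 0.81 ± 0.13 and FRD3 by 0.62 ± 0.16 on the log2 scale. In a fit of the compared groups alone NAS4 and OPT3 were not called (adjusted p = 0.087 and 0.0561), and YSL1, at 0.83 ± 0.41, was called without WT -Fe library 3 (0.037).

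The Fe deficiency response in flg22-treated WT was smaller in value and called in the same 3 genes. NAS4 had a log2 fold change of 2.44 ± 0.37 (3.94 ± 1.19 to 21.4 ± 8.15 CPM, adjusted p = 0.00189), OPT3 of 1.60 ± 0.22 (adjusted p = 0.00106) and FRO3 of 1.02 ± 0.18 (adjusted p = 0.00732). These were 3 of 8 genes, where 0.138% of loci were called. In a fit of the compared groups alone the 3 were not called (adjusted p = 0.3, 0.299 and 0.408). Leaving out 1 library ended the call of NAS4 (without +Fe library 2, 0.0503) and of FRO3 (without +Fe library 1 or 2, 0.102 and 0.135, or -Fe library 1 or 3, 0.117 and 0.056). The difference between the flg22 responses at the 2 Fe supplies was not called for any of the 8 genes in WT, against 0.246% of loci. It was -1.17 ± 0.31 on the log2 scale for OPT3 (adjusted p = 0.142). For FRO3 it was -0.93 ± 0.25 (adjusted p = 0.151). These were the 2 of 8 genes at an unadjusted p under 0.05, with 1557 of all tested loci at that level. DESeq2 called both (adjusted p = 0.041 and 0.044), and FRO3 was also called without WT +Fe library 2 (0.0423).

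In fls2, none of the 8 genes was called for flg22 with Fe and none without. In each, 0% of loci were called, with 648 and 807 loci at an unadjusted p under 0.05. Among the 8, there were at that level 1 gene with Fe, FRD3 (27.7 ± 3.62 to 36.5 ± 1.40 CPM), and 0 without. The FRD3 groups with Fe did not overlap, nor did those of YSL3 (44.5 ± 5.68 to 53.2 ± 1.98 CPM, log2 fold change 0.26 ± 0.13). DESeq2 and limma-trend called 0 of 8 in both. For NAS1 the log2 fold changes were -0.23 ± 0.39 and 0.06 ± 0.38, and for OPT3 -0.06 ± 0.22 and 0.07 ± 0.21. The difference between the 2 Fe supplies was called for 0 of 8 genes, as for 0% of loci, and for 0 of 8 by DESeq2. It was at an unadjusted p under 0.05 for 0 of 8 genes and for 521 of all tested loci.

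Untreated fls2 roots and WT roots did not differ in any of the 8 genes past the threshold. With Fe 0 of 8 were called, against 0.0197% of loci, and without Fe 0 of 8, against 0.103%. An unadjusted p under 0.05 was reached by 0 genes with Fe and by 2 without, YSL3 and FRD3. Of all tested loci, 1321 with Fe and 1931 without were at that level. DESeq2 called 0 of 8 in both. Under flg22 with Fe, NAS1 was higher in fls2 (67.5 ± 11.6 against 19.5 ± 15.0 CPM, log2 fold change 1.80 ± 0.42, adjusted p = 0.00117), and YSL3 and FRD3 were lower by 0.50 ± 0.13 and 0.61 ± 0.15 on the log2 scale. These were 3 of 8 genes, near the background of 48.0%. The NAS1 value was 2.63 without WT library 3 and was not called with the compared groups alone (adjusted p = 0.0739), while OPT3 was called without fls2 library 2 (0.0471). Under flg22 without Fe, 4 of 8 genes were higher in fls2 and 3 lower, against 48.3% of loci. NAS1 stood at 153, 184 and 211 CPM in fls2 and 42.4, 24.8 and 42.0 CPM in WT, and OPT3 at 277, 276 and 262 CPM against 153, 110 and 160 CPM, neither with overlap. FRO3 and NAS4 were higher by 1.25 ± 0.18 and 1.19 ± 0.31 on the log2 scale, and YSL1, YSL3 and FRD3 lower by 1.46 ± 0.43, 1.05 ± 0.13 and 0.72 ± 0.16.

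The flg22 response of fls2 differed from that of WT in 5 of 8 genes without Fe, 4 higher and 1 lower, where 21.2% of loci were called. The difference on the log2 scale was 2.08 ± 0.56 for NAS1 (adjusted p = 0.0101), 1.44 ± 0.43 for NAS4 (adjusted p = 0.019), 1.05 ± 0.30 for OPT3 (adjusted p = 0.0143), 1.36 ± 0.25 for FRO3 (adjusted p = 0.000441) and -0.74 ± 0.19 for YSL3 (adjusted p = 0.0069). The NAS4 call was lost without WT -Fe library 1 (0.0771), without WT -Fe +flg22 library 2 (0.0572) and with the compared groups alone (0.0878), and that of OPT3 without WT -Fe library 1 (0.051). With Fe 0 of 8 genes were called, against 20.2% of loci. There 3 of 8 genes and 6903 of all tested loci were at an unadjusted p under 0.05. The values nearest the threshold were 1.55 ± 0.57 for NAS1 (adjusted p = 0.0572) and -0.50 ± 0.19 for YSL3 (adjusted p = 0.0584). DESeq2 called these 2 (adjusted p = 0.037 and 0.038), and leaving out 1 library called NAS1 (without WT +Fe library 3, 0.0164, or WT +Fe +flg22 library 3, 0.00302), YSL3 (without WT +Fe library 3, 0.0304, or fls2 +Fe library 2, 0.0456) and FRD3 (without WT +Fe library 1, 0.0381, or WT +Fe +flg22 library 3, 0.0376).

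In IMA1ox, flg22 raised YSL3 and FRD3 as in WT, and no gene was lowered past the threshold. With Fe, 2 of 8 genes were higher, against 43.4% of loci, FRD3 by 0.85 ± 0.15 on the log2 scale (51.5 ± 4.57 to 92.5 ± 9.06 CPM, adjusted p = 0.000102) and YSL3 by 0.42 ± 0.13 (adjusted p = 0.0135). That YSL3 call was lost without the treated library 3 (adjusted p = 0.0623). Without Fe, 4 of 8 were higher, a share near the 45.5% of loci called. YSL3 went from 31.6, 28.7 and 28.8 CPM to 48.9, 65.0 and 62.4 CPM (log2 fold change 0.98 ± 0.13, adjusted p = 2.27e-06) and FRD3 from 28.3, 23.3 and 23.7 CPM to 42.5, 52.6 and 42.1 CPM (adjusted p = 8.57e-05). OPT3 rose by 0.63 ± 0.21 (adjusted p = 0.0184) and YSL1 by 0.95 ± 0.32 (adjusted p = 0.0174). The OPT3 call was lost without IMA1ox -Fe library 1 (0.0584) or the treated library 2 (0.0735) or 3 (0.0539), and that of YSL1 without IMA1ox -Fe library 2 (0.0774) or the treated library 3 (0.08). NAS1 had log2 fold changes of -0.41 ± 0.39 with Fe and -0.42 ± 0.39 without. NAS4 had -0.95 ± 0.56 and -1.10 ± 0.48, the latter called without the treated library 3 (0.0114). DESeq2 called both NAS4 values (adjusted p = 0.047 and 0.015).

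Set against WT, the flg22 response of IMA1ox without Fe was higher for OPT3 by 1.62 ± 0.30 on the log2 scale (adjusted p = 0.00268) and for FRO3 by 1.56 ± 0.25 (adjusted p = 0.000544). These were 2 of 8 genes, against 2.87% of loci, and both held without any single library of the compared groups. The difference was not called for NAS1 (1.60 ± 0.56, adjusted p = 0.138) or NAS4 (0.30 ± 0.58, adjusted p = 0.873). OPT3 and FRO3 had fallen by 0.98 and 1.29 in WT, and stood at 0.63 ± 0.21 and 0.27 ± 0.17 in IMA1ox. With Fe, 0 of 8 genes were called, against 0.865% of loci, and 0 of 8 by DESeq2. An unadjusted p under 0.05 was reached by 1 of 8 genes and by 2896 of all tested loci. Within IMA1ox, the flg22 responses at the 2 Fe supplies differed past the threshold in 0 of 8 genes, against 0.177% of loci. DESeq2 also called 0 of 8 in that test. There 1 of 8 genes, YSL3 (0.56 ± 0.19), and 1989 of all tested loci were at an unadjusted p under 0.05. Without both libraries that stood apart YSL3 was called there (adjusted p = 0.0296).

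Tissue markers moved with flg22 in WT and IMA1ox. In WT without Fe, where 35% of all loci were called, 7 of 10 green shoot genes were higher under flg22 (summed 376 to 614 against 223 to 337 CPM), 3 of 4 xylem markers were lower (149 to 163 against 211 to 249 CPM) and 4 of 6 root outer and endodermal markers were lower (277 to 313 against 418 to 479 CPM). Of 5 pericycle and stele markers 2 were higher and 1 lower (791 to 841 against 701 to 747 CPM), and of 5 phloem markers 2 were higher and 0 lower (127 to 151 against 130 to 139 CPM). In WT with Fe, where 40.1% of loci were called, summed means under flg22 went from 310 to 462 CPM for green shoot genes. Pericycle and stele went from 717 to 947 CPM and phloem from 132 to 143 CPM. PHO1 alone held 496 of the 717 CPM. Such sums follow the most abundant markers and do not show how many markers moved. Xylem went from 234 to 160 CPM, and root outer and endodermal markers from 465 to 287 CPM. In IMA1ox with Fe, where 43.4% of loci were called, the summed phloem level went from 130 ± 6.76 to 195 ± 19.4 CPM under flg22. Green shoot went there from 197 to 298 CPM and pericycle and stele from 586 to 753 CPM, with PHO1 at 394 of the 586 CPM. Xylem went from 168 to 150 CPM, and root outer and endodermal markers from 305 to 211 CPM. The part of these markers in the flg22 values of the transport genes was not tested. For Fe deficiency in WT, against 5.97% of loci, 0 of 10 green shoot, 0 of 5 phloem, 0 of 4 xylem and 0 of 6 root outer and endodermal markers were called, and of 5 pericycle and stele markers HKT1 was higher and AHK4 lower. In flg22-treated fls2, 3 of 10 green shoot genes were lower without Fe (summed 177 to 205 against 241 to 276 CPM), where 5.30% of loci were called.

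The makeup of the NAS transcripts shifted with treatment and genotype. Per kb of exon, NAS1 made up 82.1 ± 2.73% of the summed NAS level in WT with Fe, NAS2 10.03 ± 1.01% and NAS4 7.90 ± 3.72%. Without Fe these shares were 71.9 ± 1.47%, 2.15 ± 0.459% and 25.9 ± 1.89%. The -Fe libraries of WT held 24.0 to 27.8% NAS4 and the +Fe libraries 5.41 to 12.2%. In fls2 without Fe the NAS4 share was 20.5 ± 2.72%, and with flg22 added 20.5 ± 5.01%. WT without Fe under flg22 had the highest share, 33.1 ± 4.52%, with NAS1 at 59.2 ± 4.48%. In IMA1ox the NAS4 share ran from 1.20 ± 0.318% to 2.99 ± 0.440% as group means, and no IMA1ox library reached the lowest library of WT or fls2 (3.92%). NAS2 held between 1.52 and 15.5% in the 12 groups and was called in 0 of the 20 comparisons of 2 groups, with an unadjusted p under 0.05 in 3 of them.

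**Figure D4:**
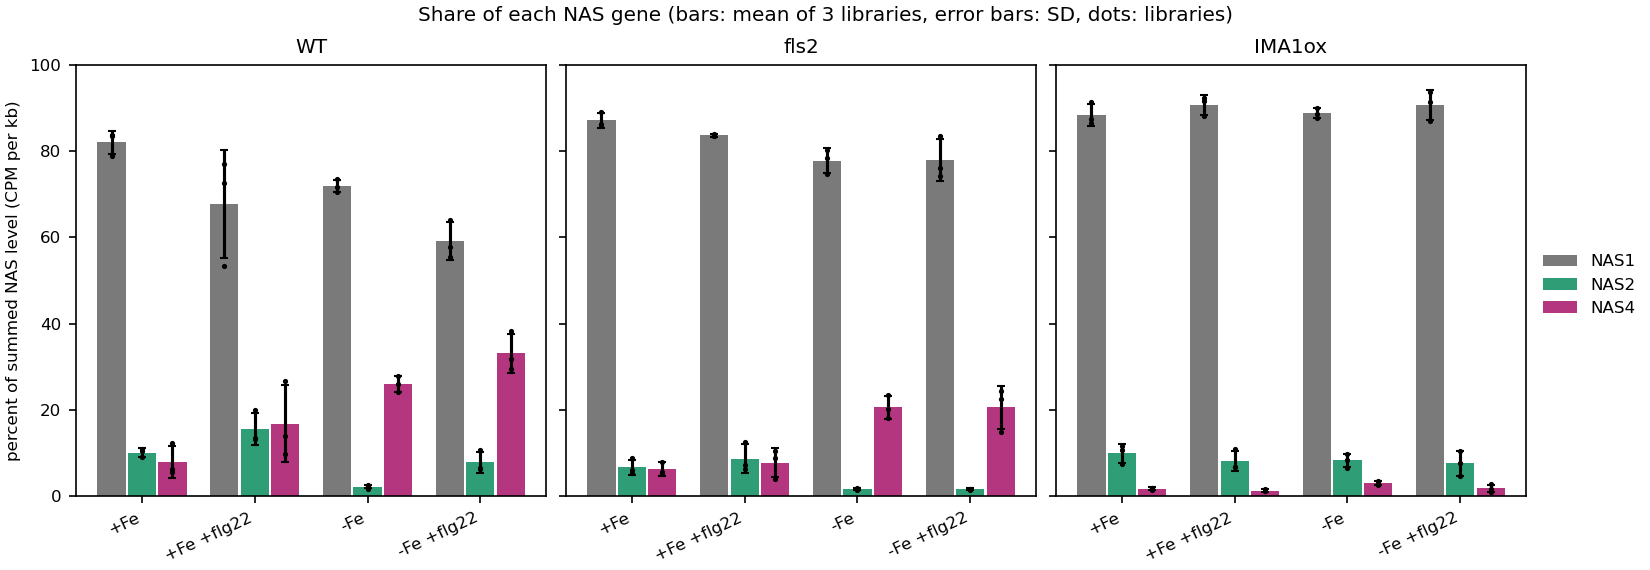
Share of NAS1, NAS2 and NAS4 in the summed NAS level (percent of CPM per kb of exon) by treatment in WT, fls2 and IMA1ox; bars are means of 3 libraries, error bars SD and dots libraries. The NAS4 share is 25.9% in WT and 20.5% in fls2 without Fe, and at most 2.99% as a group mean in IMA1ox.

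Per kb of exon, the order of levels in WT with Fe was NAS1 (47.8 ± 28.5 CPM per kb), FRO3 (29.1 ± 7.49), OPT3 (15.2 ± 3.82), YSL3 (14.7 ± 2.50), FRD3 (12.97 ± 2.54), NAS2 (5.92 ± 3.63), NAS4 (3.96 ± 1.56) and YSL1 (0.173 ± 0.0352). OPT3, YSL3 and FRD3 differed by less than the SD of each. NAS1 and FRO3, and NAS2 and NAS4, differed by less than the larger SD of the pair. Without Fe, FRO3 (113 ± 22 CPM per kb), NAS1 (106 ± 36.6) and OPT3 (103 ± 32) stood together at the top, followed by NAS4 (38.9 ± 16.9).

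Across the 12 groups, NAS4 had the widest range of group means, 46.1-fold, from 1.22 CPM in IMA1ox with Fe and flg22 to 56.1 CPM in WT without Fe. In the order of its means, the 4 lowest were the IMA1ox groups. The libraries of WT without Fe with flg22 (14.02 to 30.1 CPM) overlapped no other group. IMA1ox with Fe, and WT with Fe and flg22, did not overlap the group next above in that order. Each of them overlapped a group ranked higher still. OPT3 spanned 7.66-fold, with a low block of the 4 WT and fls2 groups with Fe (means 36.4 to 46.6 CPM), a middle block of the 4 IMA1ox groups and WT without Fe with flg22 (105 to 171 CPM) and a high block of fls2 without Fe, either way, and WT without Fe (259 to 279 CPM). Within each block neighbouring groups overlapped. FRO3 (4.95-fold) held the same 3 groups at its top. NAS1 spanned 9.38-fold, with both flg22-treated WT groups at the bottom, and 10 of its 11 pairs of neighbouring groups overlapped. FRD3 (4.13-fold) was highest in IMA1ox with Fe and flg22, 92.5 ± 9.06 CPM, apart from the next group, and YSL3 spanned 2.54-fold and was highest in WT with Fe and flg22. NAS2 spanned 3.81-fold with every pair of neighbouring groups overlapping.

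Likeness was measured as Pearson's r of log2 CPM over the 12 group means among 19158 loci, as a description, since the groups share their design. OPT3 was most like PYE (r = 0.993), a bHLH regulator of the iron deficiency response, and AT5G05250 (0.992). FRO3 was most like ORG1 (0.993) and NET3A (0.988). For NAS4 the nearest were AT1G47395 (0.979) and CCoAOMT1 (0.966), which encodes an enzyme of phenylpropanoid metabolism, and for NAS1 they were AT5G19970 (0.981) and CYP82C4 (0.963), which encodes an enzyme of sideretin synthesis, a coumarin that mobilises iron. FRD3 was nearest to AT5G39090 and UGT73B5 (both 0.959), YSL3 to AT1G14270 (0.989) and ATSAC1 (0.969), YSL1 to AT4G14990 (0.959) and PDE318 (0.958), and NAS2 to the auxin exporter gene PIN4 (0.913) and AT2G19090 (0.909). Among the genes themselves, OPT3 and FRO3 were closest (r = 0.962), NAS4 and YSL1 ran opposite (-0.936), and so did NAS1 and YSL3 (-0.884).

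Transcripts of most genes that make S-adenosylmethionine (SAM), the substrate of nicotianamine synthase, were higher without Fe in WT. Of 4 SAM synthetase genes 3 rose and 0 fell, where 5.97% of all loci were called, with SAM1 going from 894 to 1551 CPM (log2 fold change 0.80 ± 0.09, adjusted p = 6.88e-07), MAT3 from 885 to 1107 CPM and SAM2 from 711 to 822 CPM. Of 9 genes that recycle methylthioadenosine, the by-product of the synthase, 5 rose and 0 fell against the same share, among them ARD3 (0.970 to 10.7 CPM, log2 fold change 3.42 ± 0.97, adjusted p = 0.0337), MTI1 (0.51 ± 0.06) and MTK1 (0.50 ± 0.07). The lists had median log2 fold changes of 0.27 and 0.36, beside 0.00246 over all loci. Under flg22 in WT without Fe, 4 of the 4 synthetase genes fell, with SAM1 at -0.72 ± 0.09, MAT3 at -0.53 ± 0.09 and SAM2 at -0.38 ± 0.06, and 5 of the 9 recycling genes fell, with ARD3 at -2.79 ± 0.92, MTK1 at -0.53 ± 0.07 and MTI1 at -0.51 ± 0.06. Of all loci 35% were called there. The medians were -0.46 and -0.27, beside 0.00473 over all loci. In IMA1ox against WT with Fe, 0 of 4 synthetase genes were called and 2 of 9 recycling genes were higher and 1 lower, MTK1 at 0.37 ± 0.07, DEP1 at 0.20 ± 0.05 and ARD1 at -0.23 ± 0.05, where 16.7% of all loci were called.

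Relatives of the transporters and the reductase are set beside the same shares of all loci. Of 6 other YSL genes, Fe deficiency in WT (5.97% of loci called) changed 1, YSL2, which fell from 23.9 to 15.0 CPM (log2 fold change -0.67 ± 0.20, adjusted p = 0.047). Of 5 tested among 8 other OPT genes it changed 1, OPT7, which fell by 0.30 on the log2 scale. Of 5 tested among 7 other FRO genes, FRO2, the root surface reductase, rose from 115 to 941 CPM (log2 fold change 3.03 ± 0.76, adjusted p = 0.0156), and FRO5 fell. Summed over the libraries of each group, FRO5 had 74 counts with Fe and 1 without. Their ratio of 70.4 had an exact 95% counting interval from 12.2 to 2.82e+03, which leaves out the spread between libraries. The log2 fold change of FRO5 was -5.70 ± 1.51 (adjusted p = 0.0266). Under flg22 in WT without Fe, where 35% of all loci were called, 2 of the 6 YSL genes rose and 3 fell, among them YSL7 at 0.91 ± 0.18, YSL5 at 0.33 ± 0.08 and YSL8 at -0.33 ± 0.09. OPT4 rose by 0.58 ± 0.12 and OPT2, at 0.327 CPM without the peptide, fell by 2.12 on the log2 scale. FRO2 fell by 2.92, from 941 to 125 CPM (adjusted p = 0.00439). In IMA1ox with Fe, where 16.7% of loci were called, YSL2 was lower than in WT by 1.21 ± 0.21, YSL5 by 0.37 ± 0.08 and OPT7 by 0.53 ± 0.08 on the log2 scale. FRO4 stood at 0.135 against 10.5 CPM there (log2 fold change -6.22 ± 1.38, adjusted p = 0.00271), and FRO5 had no count in IMA1ox against 0.744 CPM in WT.

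Among 6 partners of iron, citrate and nicotianamine transport, 3 were called for Fe deficiency in WT, against 5.97% of all loci. It raised ZIF1 from 24.0 to 80.2 CPM (log2 fold change 1.74 ± 0.11, adjusted p = 6.39e-12) and IREG2, a vacuolar metal transporter gene, from 23.3 to 51.3 CPM, and lowered IREG1, whose product exports iron from vascular cells, from 8.78 to 6.17 CPM. Under flg22 without Fe, where 35% of loci were called, ZIF1 and IREG2 fell by 0.56 and 1.17 on the log2 scale and IREG1 rose by 0.34 ± 0.12. In IMA1ox with Fe, where 16.7% of loci were called, 4 of the 6 were higher than in WT and 1 lower, with ZIF1 at 0.57 ± 0.11, the citrate transporter gene MATE (AT1G51340) at 0.52 ± 0.14 and IREG1 at -0.90 ± 0.12. Of 12 upstream iron regulators 7 rose and 0 fell without Fe in WT, against the same 5.97%, with bHLH100 at 4.05 ± 0.65, bHLH38 at 3.38 ± 0.48 and bHLH101 at 3.22 ± 0.25. Under flg22 without Fe, 7 of the 12 fell and 1 rose, against 35% of loci, with bHLH100 at -2.096 ± 0.58, bHLH38 at -1.83 ± 0.44 and bHLH101 at -1.58 ± 0.22. In IMA1ox with Fe, 6 of the 12 were higher and 0 lower, against 16.7%, with bHLH100 at 2.57 ± 0.64, bHLH101 at 2.09 ± 0.26 and bHLH39 at 1.95 ± 0.30.

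Of 6 zinc deficiency genes, known targets of bZIP19 and bZIP23, Fe deficiency in WT lowered 4 and raised 0, where 5.97% of all loci were called, with IRT3 at -0.91 ± 0.11, ZIP5 at -0.77 ± 0.18 and ZIP4 at -0.60 ± 0.13. flg22 without Fe raised 5 and lowered 0, against 35% of loci, with ZIP5 at 1.38 ± 0.17, IRT3 at 0.94 ± 0.11 and ZIP4 at 0.68 ± 0.13. In IMA1ox with Fe, 5 were lower than in WT and 0 higher, against 16.7% of loci, with ZIP5 at -1.38 ± 0.18, IRT3 at -1.21 ± 0.11 and ZIP4 at -0.94 ± 0.13. NAS2, which is known to rise under zinc deficiency, had log2 fold changes of -0.96 ± 0.50, 0.10 ± 0.52 and 0.72 ± 0.46 in the same 3 comparisons.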

How the data were processed

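Root RNA was sequenced in 36 libraries, 3 in each of 12 groups taken from the sample labels. Raw counts per locus and a normalised signal in CPM were deposited as 2 tables. The submitters' processing notes name STAR 2.7.0a, edgeR 3.36.0 and the build TAIR10, with no role for each. The counter, its strand setting and its treatment of reads with several matches are not given in the sources used here. The deposited CPM signal is the count table times 1 constant per column (largest relative deviation 1.75e-14), and was used for 1 alternative test.

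Of 24532 loci, 1161 had no count and 20354 passed edgeR's filter (minimum count 10). Counts, with library totals from 28130566 to 40903411 and TMM factors from 0.967 to 1.05, were fitted in 1 robust quasi-likelihood model with a mean per group (edgeR 4.0.16, R 4.3.3). The F-test served for 20 comparisons of 2 groups and 11 differences between such comparisons, with Benjamini-Hochberg adjustment over all loci of each comparison at 0.05. The test was checked on simulated counts. Alternatives used other scalings and filters, DESeq2 1.42.0, limma 3.58.1 on log2 of the deposited CPM plus a pseudocount of 1, the replicate number as a block, the compared groups alone and each library left out in turn.

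The labels do not say what a replicate number marks. The 3 same-numbered libraries deviated together (correlations all over 0.1) in 0 of 20 comparisons, so no replicate term was used. No 2 libraries of a group agreed within sampling noise. The genes, the gene lists and the marker lists were chosen with earlier results of these data known. Of the 9 genes, those called are named for each comparison, and those not called are named for some comparisons only. A gene left unnamed in a comparison can therefore still have a sizeable change that was not called. The colour plot of log2 fold changes shows every measured gene in all 20 comparisons of 2 groups. From the other lists the up to 3 called genes with the largest change are named in 3 comparisons, Fe deficiency in WT, flg22 in Fe-deficient WT, and Fe-sufficient IMA1ox against WT, and for likeness the 2 nearest loci. Sequences and positions are RefSeq's for TAIR10.1. The count files hold no coordinates.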

Additional observations from a re-analysis of the deposited data

Results flagged for a closer look

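In 11 cases the response of 1 gene to the same treatment differed between 2 genotypes by a test of the difference itself. Every one of these tests uses the WT -Fe group without flg22, so the cases are not independent of each other. The Fe deficiency response without flg22 was lower in IMA1ox than in WT for 4 genes, by a log2 difference of -2.71 for NAS4, -2.70 for OPT3, -1.65 for FRO3 and -0.96 for FRD3. NAS4, OPT3 and FRO3 had risen in WT and were not called in IMA1ox, while FRD3 fell in IMA1ox and was not called in WT.

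The flg22 response without Fe was higher in IMA1ox than in WT for OPT3 (1.62) and FRO3 (1.56), both of which had fallen in WT.

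Between fls2 and WT, the flg22 response without Fe differed by 2.08 for NAS1, 1.44 for NAS4, 1.05 for OPT3, 1.36 for FRO3 and -0.74 for YSL3. None of these 5 was called under flg22 in fls2. Groups of 3 libraries are too small for a test of single outlying libraries, so none was made.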

How the results depend on the processing

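Depending on the comparison, 0 to 48.3% of all tested loci were called. Of 248 pairs of a gene and a comparison, 69 were called. Of these, 49 kept the call in every alternative that tested the gene and without any 1 library of the compared groups. The other 20 lost the call in at least 1 of these, and none of the 69 changed direction. A further 29 pairs were called only under some alternative. Differences of responses gave 11 calls, and 17 with DESeq2, the cause of which was not tested. With 1 library left out at a time, the calls ran from 15 to 18 for Fe deficiency (17 with all libraries), 14 to 17 for flg22 (15), 14 to 18 for IMA1ox against WT (16), 10 to 11 for fls2 against WT (10) and 10 to 13 for differences (11). A fit of the compared groups alone, which has fewer libraries to estimate the spread from, ended 12 calls and added 10, and called 373 loci rather than 1216 for Fe deficiency in WT and 5 rather than 28 in flg22-treated WT, but 1616 rather than 1079 in flg22-treated fls2 and 1379 rather than 873 in IMA1ox. The filter of at least 5 CPM in 3 libraries removed YSL1. With the replicate block, the call of NAS4 in IMA1ox against WT with Fe was lost (adjusted p = 0.0583), YSL3 was gained in the difference of flg22 responses of fls2 and WT with Fe (0.0438), and no other call changed. Same-numbered libraries had correlations from -0.277 to 0.332. The leaving out of the 2 libraries that deviate most was chosen after seeing the data. The precision of YSL1, at under 1.3 CPM in every library, is limited by its low counts. NAS3 had 0 counts, and why was not tested.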
